A study of Homo sapiens with 6 samples.

Results

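The RNA of 9 tight junction genes was followed in 2 gastric cancer cell lines, AGS and HGC-27. The genes are the claudins CLDN1, CLDN3, CLDN4, CLDN7 and CLDN12, the strand protein OCLN (occludin) and the scaffold genes TJP1, TJP3 and MPDZ. They were taken by symbol from the 51103 genes of the deposited tables, and all 9 were found. AGS was derived from a gastric adenocarcinoma and HGC-27 from a gastric carcinoma described as undifferentiated. The cells had been given either a lentivirus that overexpresses NINJ1 or the negative control, and their polyadenylated RNA was sequenced. NINJ1 (ninjurin-1) is a membrane protein known from cell adhesion and from the rupture of dying cells. Cells were lysed after 48 hours. Per line there were 2 libraries labelled NINJ1 and 1 control library, 6 in all.

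Tight junctions seal the space between neighbouring epithelial cells at the border of the apical membrane. Claudins are membrane proteins that polymerise into strands, and the claudins a cell makes set how tight the seal is and which ions pass. Occludin joins the strands, and scaffold proteins with PDZ domains, such as TJP1 (ZO-1), TJP3 (ZO-3) and MPDZ (MUPP1), bind the claudin tails and tie them to actin and to polarity proteins. In normal stomach the gastric epithelium makes its own set of claudins, and carcinomas often change that set. The transcription factors SNAI1, SNAI2, ZEB1 and ZEB2 are known to repress claudin and occludin genes in epithelial cells by binding E-boxes of the form CAGGTG.

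Titles and file names disagree for both NINJ1 replicate 2 libraries. One is titled HGC-27 and has AGS in its file name and column header, and the other is titled AGS and has HGC-27 there. Libraries are grouped below by the line in the file name, and the libraries are called AGS or HGC-27 in that sense. With the titled lines in place of these, of the member calls given below only the higher CLDN4 of HGC-27 passed the threshold. MPDZ had 0 counts in the library titled HGC-27 and in both undisputed AGS libraries. It had 1204 in the library titled AGS, beside 1231 and 1850 in the undisputed HGC-27 libraries. TIAM1, an exchange factor for RAC1, had 0 counts in the same AGS libraries and 47 in the library titled AGS, beside 52 and 86. The identity of the lines was not tested further. Total counts ran from 12619684 to 18175697 per library. The NINJ1 transcript itself did not follow the labels in AGS. It stood at 19.5 and 15.9 TMM-scaled CPM (counts scaled to an equal library size) in the libraries labelled NINJ1, against 28.4 in the AGS control (log2 change -0.68, SE 0.19, adjusted p = 0.0148). It stood at 17.3 and 19.1 CPM in the HGC-27 libraries labelled NINJ1, against 4.89 in the HGC-27 control (log2 change 1.89, SE 0.24, adjusted p = 3.22e-08, and 0.51 with adjusted p = 0.0600 after a correction for GC content). The groups are therefore called by their labels throughout, and no AGS change below goes with a measured rise of NINJ1. The HGC-27 control stood apart in base composition: genes over 60% GC held 2.31% of its counts and 9.25% to 11.35% in the other 5 libraries. HGC-27 changes are therefore given with and without a correction for GC content, apart from those of TWIST1, PECAM1 and DCN, given without it. Of 8 epithelial markers, 5 reached 1 FPKM in every library, among them KRT8 at 48.6 to 82.8 FPKM, while CDH1 (E-cadherin) lay at no more than 0.454 FPKM, KRT19 had 0 or 1 count per library and VIM, an intermediate filament gene of mesenchymal cells, lay at 45.4 to 94.3 FPKM. The blood cell marker PTPRC had 0 or 1 count per library.

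The members are spread over the genome in GRCh38 (GENCODE release 29). CLDN3 (ENSG00000165215, chromosome 7, 73768997 to 73770270, minus strand) and CLDN4 (ENSG00000189143, chromosome 7, 73799542 to 73832693, plus strand) are neighbours, with 29272 bases between their annotated spans. CLDN12 (ENSG00000157224, 90383721 to 90513402, plus strand) is on the same chromosome. CLDN1 (ENSG00000163347) lies on chromosome 3, 190305701 to 190322475, minus strand. CLDN7 (ENSG00000181885) lies on chromosome 17, 7259903 to 7263983, minus strand. OCLN (ENSG00000197822) lies on chromosome 5, 69492292 to 69558104, plus strand. TJP1 (ENSG00000104067) lies on chromosome 15, 29699367 to 29968865, minus strand. TJP3 (ENSG00000105289) lies on chromosome 19, 3708109 to 3750813, plus strand. MPDZ (ENSG00000107186) lies on chromosome 9, 13105704 to 13279590, minus strand.

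Promoter windows of RefSeq on GRCh38.p14, each from 250 bases before to 50 bases after a transcription start, were found for all 9 members (15 windows). The windows shown are those of the genes whose levels differed most between libraries, together with CLDN3, the near-silent neighbour of CLDN4. Capitals mark the E-box CAGGTG read on either strand (CAGGTG or CACCTG), and every sequence runs 5′ to 3′ on the gene's strand.
CLDN3 (chr7:73770221-73770520, minus strand): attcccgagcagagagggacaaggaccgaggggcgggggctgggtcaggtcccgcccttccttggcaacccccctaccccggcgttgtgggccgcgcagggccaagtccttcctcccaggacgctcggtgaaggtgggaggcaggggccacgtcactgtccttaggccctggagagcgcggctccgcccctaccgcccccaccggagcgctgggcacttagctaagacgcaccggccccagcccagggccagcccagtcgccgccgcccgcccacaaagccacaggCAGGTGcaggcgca
CLDN4 (chr7:73830746-73831045, plus strand): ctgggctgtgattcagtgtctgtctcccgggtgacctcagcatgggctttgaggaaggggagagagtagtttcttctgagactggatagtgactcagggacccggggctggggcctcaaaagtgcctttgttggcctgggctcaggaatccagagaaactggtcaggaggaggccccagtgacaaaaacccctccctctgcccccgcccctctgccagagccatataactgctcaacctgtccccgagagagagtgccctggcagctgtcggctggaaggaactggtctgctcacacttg
CLDN7 (chr17:7262429-7262728, minus strand): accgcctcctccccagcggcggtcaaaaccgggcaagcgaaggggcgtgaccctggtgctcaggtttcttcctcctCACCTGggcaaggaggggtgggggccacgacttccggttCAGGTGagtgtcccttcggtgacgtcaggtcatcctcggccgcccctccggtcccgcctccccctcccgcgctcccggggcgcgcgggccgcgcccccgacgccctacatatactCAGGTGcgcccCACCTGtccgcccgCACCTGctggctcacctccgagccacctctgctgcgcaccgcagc
TJP3 (chr19:3721487-3721786, plus strand): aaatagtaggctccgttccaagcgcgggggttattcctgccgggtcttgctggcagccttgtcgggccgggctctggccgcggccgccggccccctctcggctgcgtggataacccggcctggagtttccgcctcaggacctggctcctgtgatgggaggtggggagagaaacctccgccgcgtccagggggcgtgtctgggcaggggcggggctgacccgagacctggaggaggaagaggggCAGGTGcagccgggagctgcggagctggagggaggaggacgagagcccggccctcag
MPDZ (chr9:13279643-13279942, minus strand): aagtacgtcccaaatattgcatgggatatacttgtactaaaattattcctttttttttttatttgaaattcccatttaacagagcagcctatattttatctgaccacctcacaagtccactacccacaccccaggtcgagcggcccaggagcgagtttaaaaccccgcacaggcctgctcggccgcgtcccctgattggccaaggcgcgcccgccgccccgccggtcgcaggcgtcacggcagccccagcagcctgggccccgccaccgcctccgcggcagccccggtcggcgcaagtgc
The window of CLDN7 held 5 E-boxes, those of CLDN3 and TJP3 held 1 each, and those of CLDN4 and MPDZ held 0. Of all 35116 RefSeq windows of this length, 20.6% held at least 1 such E-box and 0.094% held 5 or more. Among the member windows, 6 of 15 held at least 1: the other 3 belong to OCLN (1 and 2 E-boxes) and TJP1 (1). CLDN7 and TJP3 each have a further window, with 0 E-boxes. A match describes the letters alone and says nothing about binding in these cells.

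The claudins fell into a group of 4 genes with sizeable RNA levels and 1 near-silent gene. CLDN1, which is needed for the epidermal barrier in mice, stood at 7.12 and 7.84 FPKM in the AGS libraries labelled NINJ1 and 6.48 in the AGS control. In HGC-27 it stood at 12.5 and 12.0 FPKM in the libraries labelled NINJ1 and 15.6 in the control. All 3 AGS values lay below all 3 HGC-27 values. CLDN12, an unusual claudin whose tail lacks the PDZ-binding motif of most family members, stood at 14.1 and 14.5 FPKM in AGS libraries labelled NINJ1 and 10.8 in the AGS control. Its HGC-27 values were 12.8 and 11.6 FPKM in libraries labelled NINJ1 and 9.12 in the control, so the lines overlapped and both controls lay below their NINJ1-labelled libraries in FPKM. In the TMM-scaled CPM that the tests rest on, the HGC-27 control (76.98) lay between its NINJ1-labelled libraries (81.77 and 74.83). Of the exonic bases of CLDN12, 16.3% are shared on the same strand with overlapping genes, so a part of its count could belong to them.

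CLDN4, a strand protein that is also a receptor for Clostridium perfringens enterotoxin, stood at 9.12 and 8.06 FPKM in AGS libraries labelled NINJ1 and 10.4 in the AGS control. Its HGC-27 values were 8.46 and 10.1 FPKM in libraries labelled NINJ1, against 0.725 in the control, or 576 and 717 counts against 62. The HGC-27 control alone was low, and the other 5 libraries overlapped. CLDN7, a claudin of the basolateral membrane in many epithelia, stood at 5.09 and 3.72 FPKM in AGS libraries labelled NINJ1 and 12.9 in the AGS control. Its HGC-27 values were 2.44 and 2.61 FPKM in libraries labelled NINJ1 and 0.287 in the control, which rests on 13 counts. All AGS values of CLDN7 lay above all HGC-27 values. Of its exonic bases, 10.8% are shared on the same strand with an overlapping gene, so a part of its count could belong to that gene.

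CLDN3 and OCLN were at or near the counting limit. CLDN3, also a receptor for the enterotoxin, had 3 counts in the first HGC-27 library labelled NINJ1 and 0 in the other 5 libraries, where a count of 0 allows up to 3. It was not tested, because it failed the filter on low counts that the other 8 members passed. OCLN had 9 and 9 counts (0.105 and 0.1003 FPKM) in AGS libraries labelled NINJ1 and 12 (0.127 FPKM) in the AGS control. It had 17 and 27 counts (0.174 and 0.265 FPKM) in HGC-27 libraries labelled NINJ1 and 10 (0.0814 FPKM) in the HGC-27 control. Of its 75-base words, 7.4% also occur in the pseudogene OCLNP1.

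**Figure D1:**
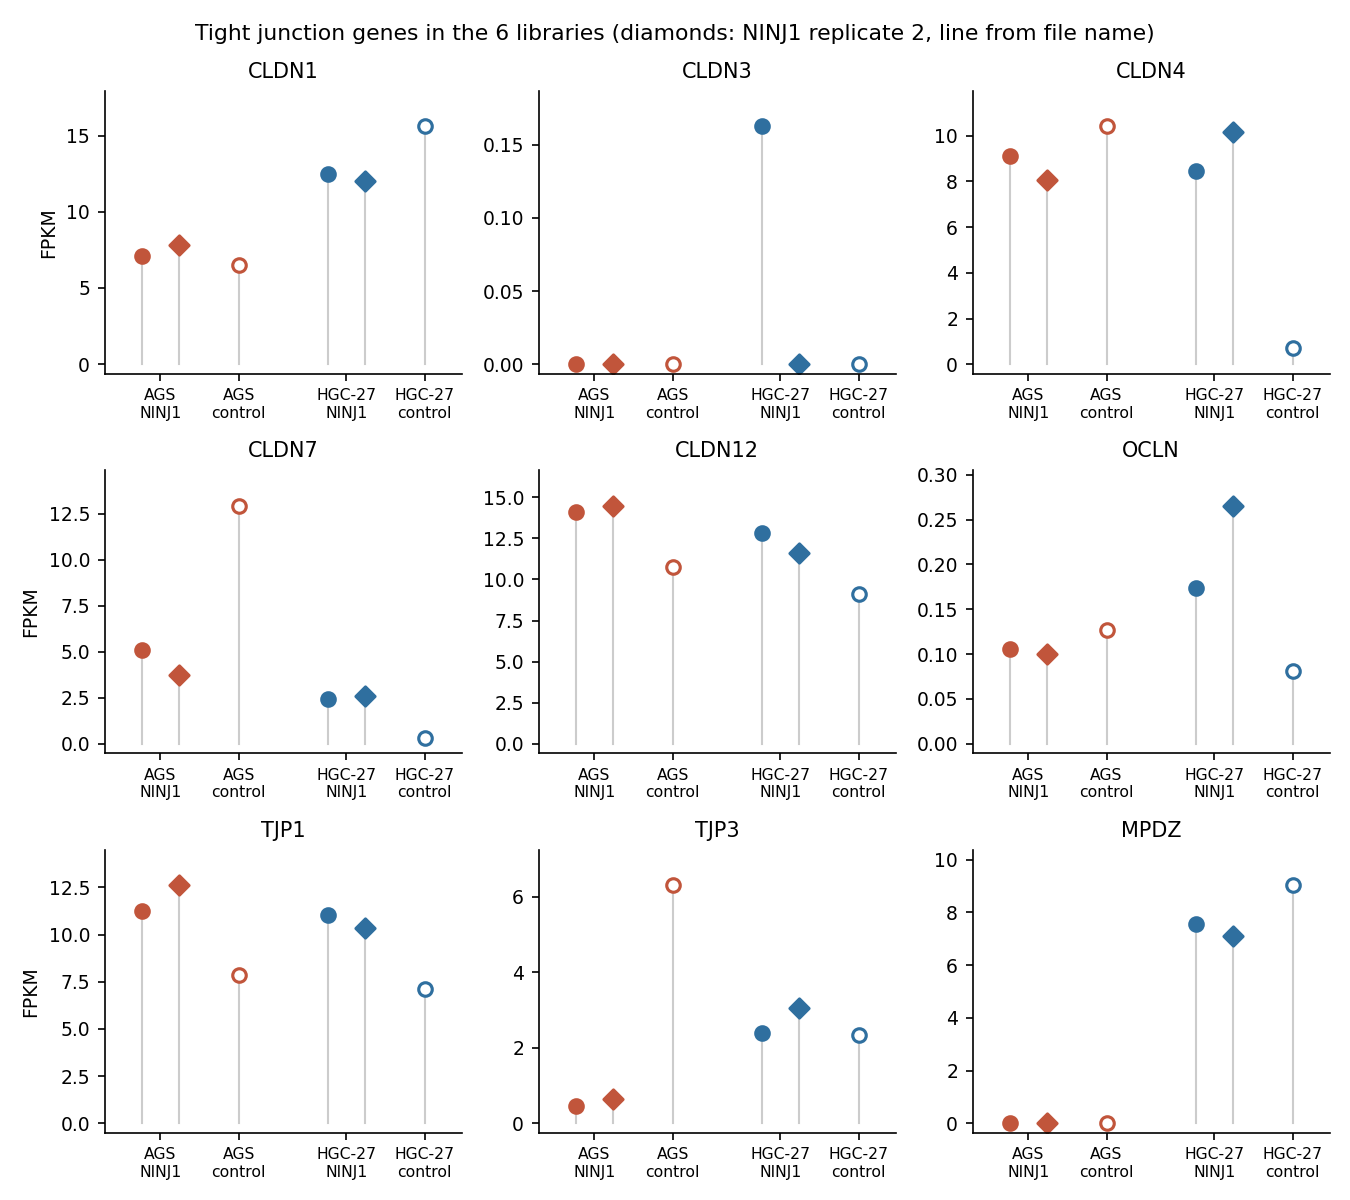
FPKM (counts scaled by gene length and library total, linear axes that differ between panels) of the 9 genes, with 1 point per library; filled points are libraries labelled NINJ1, open points controls, red AGS and blue HGC-27, and diamonds the replicate 2 libraries whose title gives the other line. MPDZ was at 0 in all 3 AGS libraries, CLDN4 was low in the HGC-27 control alone (0.725), and TJP3 was high in the AGS control alone (6.31).

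Among the scaffold genes, TJP1 was held by both lines. It stood at 11.2 and 12.6 FPKM in AGS libraries labelled NINJ1 and 7.87 in the AGS control. Its HGC-27 values were 11.03 and 10.4 FPKM in libraries labelled NINJ1 and 7.09 in the control, and the lines overlapped. In TMM-scaled CPM the gap in HGC-27 was smaller, with 117.7 and 111.6 against 100.1 in the control. TJP3, a scaffold of epithelial junctions, had 25 and 36 counts (0.470 and 0.643 FPKM) in AGS libraries labelled NINJ1, against 371 counts (6.31 FPKM) in the AGS control. In HGC-27 it stood at 2.39 and 3.04 FPKM in libraries labelled NINJ1 and 2.35 in the control. In TMM-scaled CPM the HGC-27 control (12.4) lay above both of these libraries (9.54 and 12.27). The AGS control was the highest of the 6 and the AGS libraries labelled NINJ1 were the lowest. MPDZ, a large scaffold with many PDZ domains, had 0 counts in all 3 AGS libraries. It stood at 7.54 and 7.10 FPKM in HGC-27 libraries labelled NINJ1 and 9.03 in the HGC-27 control, or 1231, 1204 and 1850 counts.

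Ordered by FPKM, the AGS libraries labelled NINJ1 had CLDN12, TJP1, CLDN4, CLDN1, CLDN7, TJP3 and OCLN, with CLDN3 and MPDZ at 0. No neighbours in this order overlapped, although CLDN4 (8.06 and 9.12) and CLDN1 (7.12 and 7.84) lay close. The HGC-27 libraries labelled NINJ1 began with CLDN12 (11.6 and 12.8) and CLDN1 (12.0 and 12.5), whose values overlapped. TJP1, CLDN4 and MPDZ followed without overlap. TJP3 (2.39 and 3.04) and CLDN7 (2.44 and 2.61) came next and overlapped, with OCLN and CLDN3 last.

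AGS differed from HGC-27 above all in MPDZ. Over all 6 libraries, with treatment as a term in the model, MPDZ was the single member of 8 tested that passed an adjusted p of 0.05, and it was lower in AGS (adjusted p = 0.00342). With 3 counts allowed to each AGS library, it was at least 436.5-fold lower in AGS. Of all 17617 genes tested, 3.27% were higher and 2.87% lower in AGS. CLDN1 had a log2 difference of -1.01 (SE 0.26, adjusted p = 0.0808), TJP3 of -1.21 (SE 0.78, adjusted p = 0.397) and CLDN7 of 1.97 (SE 0.93, adjusted p = 0.265). CLDN4 (0.93), OCLN (-0.64), CLDN12 (0.12) and TJP1 (0.04) did not pass either. With the HGC-27 or the AGS control left out, the treatment term takes up the other control. The lines are then compared through the libraries labelled NINJ1 alone, as in the next paragraph. CLDN7 was then higher and CLDN1, TJP3 and MPDZ lower in AGS, 4 members in place of 1. With GC correction MPDZ, TJP3 (-1.88) and CLDN1 (-0.86) were lower in AGS, with 10.9% of all tested genes higher and 11.3% lower. On the 4 libraries whose title and file name are not in conflict, MPDZ was lower and CLDN7 higher in AGS (log2 difference 3.01, adjusted p = 0.0389).

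The libraries labelled NINJ1 allow the lines to be compared without the controls, 2 libraries against 2. There, MPDZ (at least 356.8-fold), TJP3 and CLDN1 were lower in AGS and CLDN7 was higher, 4 of 8 members tested. The background was high: 20.2% of all tested genes were higher and 20% lower in AGS. TJP3 had a log2 difference of -2.28 (SE 0.24, adjusted p = 1.45e-09), or 4.87-fold. CLDN1 had one of -0.71 (SE 0.13, adjusted p = 4.78e-05). CLDN7 had one of 0.79 (SE 0.21, adjusted p = 0.00216), which DESeq2 did not call (adjusted p = 0.0515) and which was 0.57 (adjusted p = 0.116) without AGS NINJ1 replicate 1. The differences of CLDN12 (0.23, SE 0.11), TJP1 (0.15, SE 0.11), CLDN4 (-0.12, SE 0.14) and OCLN (-1.09, SE 0.58) did not pass. With GC correction the same 4 members passed in the same direction, with 21.3% of all tested genes higher and 22.4% lower. The median log2 difference was -0.42 over the 8 members and -0.01 over all genes.

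Of 50 other tight junction genes, 37 were tested, and in the same libraries 10 were higher and 8 lower in AGS, with a median log2 difference of 0.05. LSR (angulin-1), a protein of the contacts where several cells meet, had 0.0815 and 0.207 FPKM in AGS and 15.7 and 22.2 FPKM in HGC-27 (log2 difference -7.00, adjusted p = 1.00e-19). MARVELD2 (tricellulin), which LSR recruits to these contacts, was lower as well (-1.83, adjusted p = 9.44e-08), as were the polarity genes PRKCI (-0.78) and PARD6G (-1.37). ESAM, an adhesion molecule best known from endothelium, had 33.1 and 31.3 FPKM in AGS and 5.65 and 6.42 FPKM in HGC-27 (log2 difference 2.41, adjusted p = 1.92e-16). CGN (cingulin, 2.10), which links junctions to myosin, and the polarity scaffolds PARD3 (1.04) and MPP5 (0.85) were higher too.

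**Figure D2:**
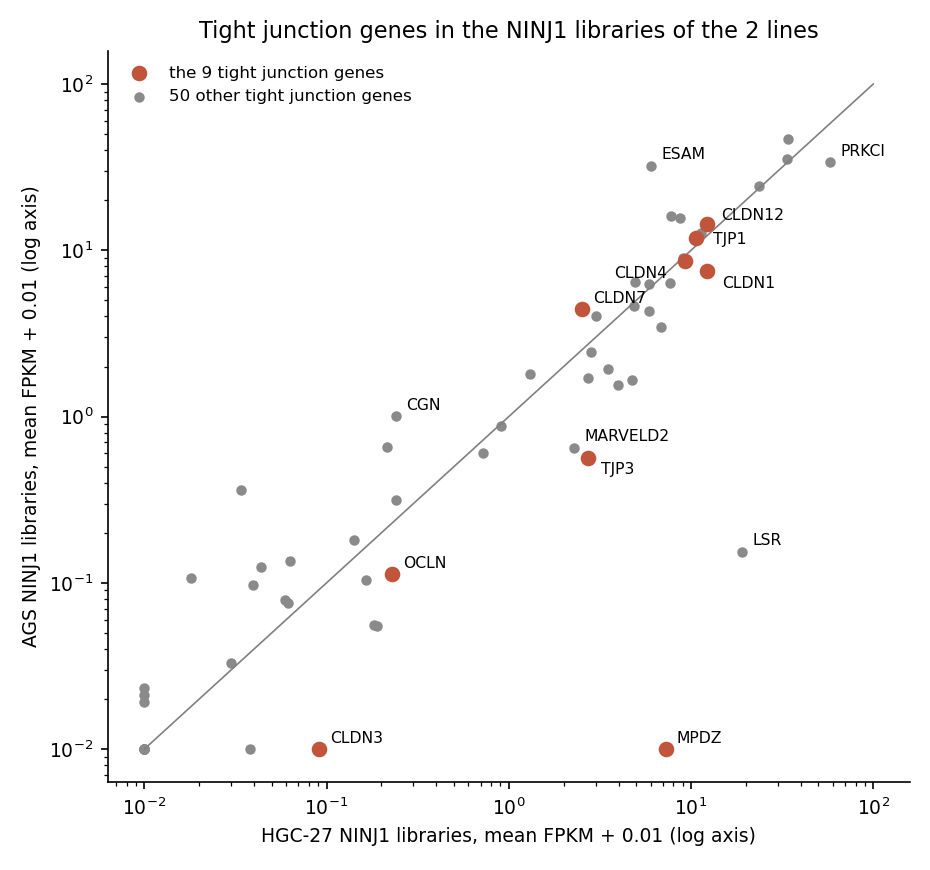
Mean FPKM plus 0.01 in the 2 AGS libraries labelled NINJ1 (vertical log axis) against the 2 HGC-27 libraries labelled NINJ1 (horizontal log axis) for the 9 members (red) and 50 other tight junction genes (grey), with a line of equal level. MPDZ and LSR lie far below the line and ESAM above it, while CLDN4, CLDN12 and TJP1 lie close to it.

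In AGS, the libraries labelled NINJ1 had less TJP3 and CLDN7 and more TJP1 than the control. TJP3 fell by 3.55 on the log2 scale (SE 0.25, adjusted p = 4.24e-12), or 11.7-fold, and CLDN7 fell by 1.61 (SE 0.22, adjusted p = 1.40e-06), or 3.06-fold. TJP1 had a log2 change of 0.55 (SE 0.14, adjusted p = 0.00579), a call that ended without the replicate 2 library titled HGC-27 (0.45, adjusted p = 0.213) and in limma on log2(FPKM + 1) (adjusted p = 0.0534). CLDN12 (0.35, SE 0.14, adjusted p = 0.0873), CLDN4 (-0.33, SE 0.17, adjusted p = 0.180), CLDN1 (0.15) and OCLN (-0.36) did not pass, and MPDZ had no count to compare. So 1 member was higher and 2 were lower of 7 with counts, against 5.73% higher and 9.3% lower of all tested genes. The count of called members was 5 without either HGC-27 library labelled NINJ1, when CLDN12 and CLDN4 passed too. In AGS NINJ1 replicate 1 alone against the control, a comparison of 1 library with 1 and without a test, TJP3 had a log2 ratio of -3.81 and CLDN7 of -1.41. The 10 fibroblast and endothelial markers summed to 3.98 and 3.36 FPKM in AGS libraries labelled NINJ1 and 11.4 in the AGS control, where 2 of them reached 1 FPKM. The same sum was 5.56 and 5.92 FPKM in HGC-27 libraries labelled NINJ1 and 1.56 in the HGC-27 control. COL1A1 stood at 3.02 and 2.56 FPKM in the AGS libraries labelled NINJ1 and 6.92 in the AGS control. Of the 5 markers tested, 4 were lower in the AGS libraries labelled NINJ1 and 0 higher. They were COL1A1 (-1.36), PDGFRB (-2.45), with 0.777 and 0.707 FPKM in AGS libraries labelled NINJ1 and 3.90 in the AGS control, PECAM1 (-2.73), with 0.0715 and 0.0680 FPKM against 0.453, and DCN, with 0 and 0 counts against 7. In HGC-27, COL1A1 was higher (2.37, and 0.29 with adjusted p = 0.141 after GC correction) and PECAM1 (-2.59) and DCN (-3.14) were lower. KDR was at 0 in all 6 libraries, and COL1A2 and COL3A1 reached no more than 0.0632 FPKM. Whether these markers have a part in the changes of the members was not tested, and in bulk RNA fewer cells with a transcript and less of it per cell cannot be told apart.

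Of the 37 other tight junction genes tested in AGS, AMOTL2 (0.49, adjusted p = 0.0117) and LIN7C (0.43, adjusted p = 0.0286) were higher, and CXADR (-0.46, adjusted p = 0.0275) and CLDN2 (adjusted p = 0.0335) were lower. CLDN2, a claudin that forms cation pores, had 2 and 2 counts in the libraries labelled NINJ1 and 17 in the control, a ratio per library total of 0.127 (95% exact interval of counting error 0.031 to 0.389). The 2 higher and 2 lower of 37 stand beside the 5.73% and 9.3% of all tested genes. Of 18 adherens junction and desmosome genes, 4 were lower and 1 higher. The lower ones were DSC2 (-1.04), PKP3 (-0.66), PERP (-0.47) and DSG2 (-0.47), and PKP3 did not pass with GC correction (-0.23, adjusted p = 0.239). The desmosome genes JUP (-0.29), PKP2 (-0.32) and DSP (-0.10) of the same list did not pass. AFDN (afadin), which ties nectins to actin, was the higher one (0.40).

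In HGC-27, CLDN4 and CLDN7 were higher and CLDN1 and MPDZ lower in the libraries labelled NINJ1, before any correction for GC content. CLDN4 had a log2 change of 3.28 (SE 0.23, adjusted p = 3.34e-14), or 9.72-fold, and CLDN7 of 2.73 (SE 0.38, adjusted p = 1.65e-07), or 6.63-fold. CLDN1 fell by 0.75 (SE 0.15, adjusted p = 7.02e-05) and MPDZ by 0.70 (SE 0.14, adjusted p = 8.53e-05). TJP3 (-0.18), TJP1 (0.20), CLDN12 (0.02) and OCLN (1.03, SE 0.72) did not pass. These calls stand among many: 34% of all tested genes were higher and 29.1% lower, so 4 of 8 members is near the background.

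The changes in HGC-27 followed GC content across all genes. Among genes of 35% to 40% GC the median log2 change was 0.12 in AGS and -0.76 in HGC-27. Among genes of 60% to 65% GC it was -0.21 in AGS and 2.35 in HGC-27. Transcripts of CLDN12, OCLN, CLDN1, MPDZ and TJP1 hold 38.1% to 44.8% GC, those of CLDN4 and CLDN7 57.5% and 59.6%, and that of TJP3 63.2%. CLDN4 (3.28) and CLDN7 (2.73) stood above the median of their class of 55% to 60% GC (1.43). In the class of 40% to 45% (-0.57), CLDN1 and MPDZ stood near the median and TJP1 (0.20) above it. CLDN12 (0.02) and OCLN (1.03) stood above that of their class of 35% to 40%. TJP3, at -0.18, lay far below genes of like GC content. The imbalance and the negative control cannot be told apart, because HGC-27 has 1 control library.

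**Figure D3:**
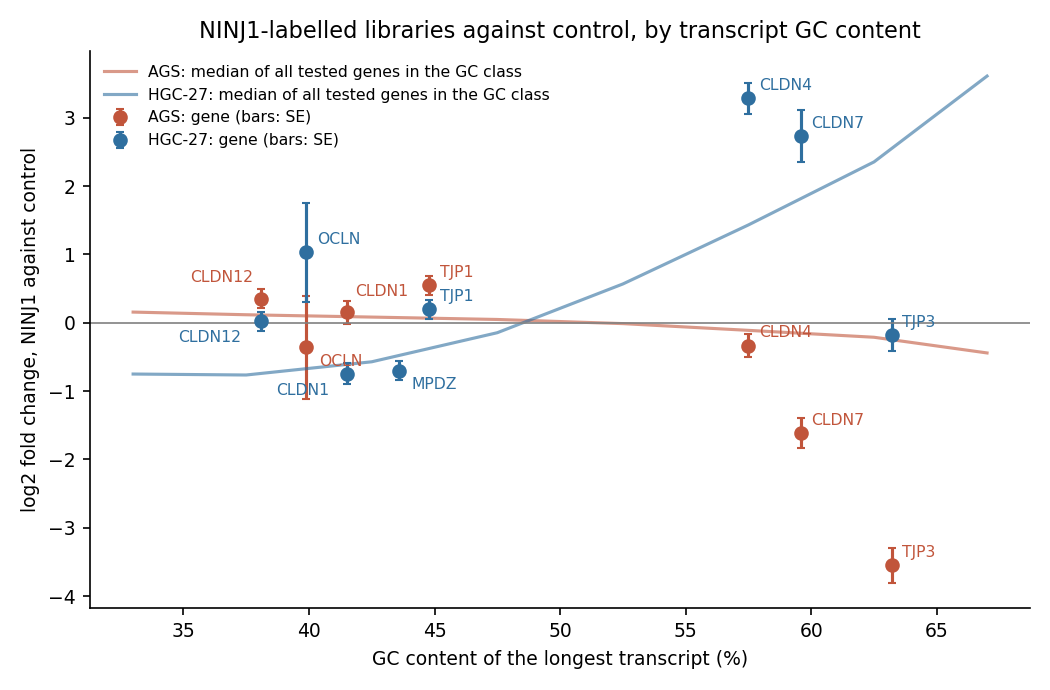
Log2 change in the libraries labelled NINJ1 against control (vertical axis, bars SE) by GC content of the longest transcript in percent (horizontal axis) for the members in AGS (red) and HGC-27 (blue), with lines for the median change of all tested genes in each GC class. The AGS line stays nearly flat, and the HGC-27 line climbs with GC content to 2.35 in the class of TJP3, which itself lies at -0.18 in HGC-27.

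With GC content corrected in each library, TJP3 was lower in HGC-27 and CLDN4, CLDN12, TJP1 and OCLN were higher. Of all tested genes, 22.2% were then higher and 26.8% lower, beside 4 and 1 of the 8 members. TJP3 stood at 7.59 and 8.39 GC-corrected CPM in HGC-27 libraries labelled NINJ1, against 50.1 in the control (log2 change -2.64, SE 0.21, adjusted p = 4.06e-10). CLDN4 stood at 33.5 and 36.2 GC-corrected CPM, against 9.70 in the control (log2 change 1.84, SE 0.20, adjusted p = 4.42e-08), so its call held on a smaller change. CLDN12 (0.76, adjusted p = 4.02e-06), TJP1 (0.56, adjusted p = 1.34e-04) and OCLN (1.73, SE 0.71, adjusted p = 0.0489) passed after the correction alone. CLDN7 (0.94, SE 0.41, adjusted p = 0.0598), CLDN1 (-0.15) and MPDZ (-0.24, adjusted p = 0.0951) no longer passed. In AGS the correction left TJP3, CLDN7 and TJP1 as the called members, with 8.44% of all tested genes higher and 10.1% lower. The correction assumes that genes of like GC content do not change on average, and it moved TJP3 of the HGC-27 control from 12.4 to 50.1 CPM, so the corrected size rests on that assumption.

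**Figure D4:**
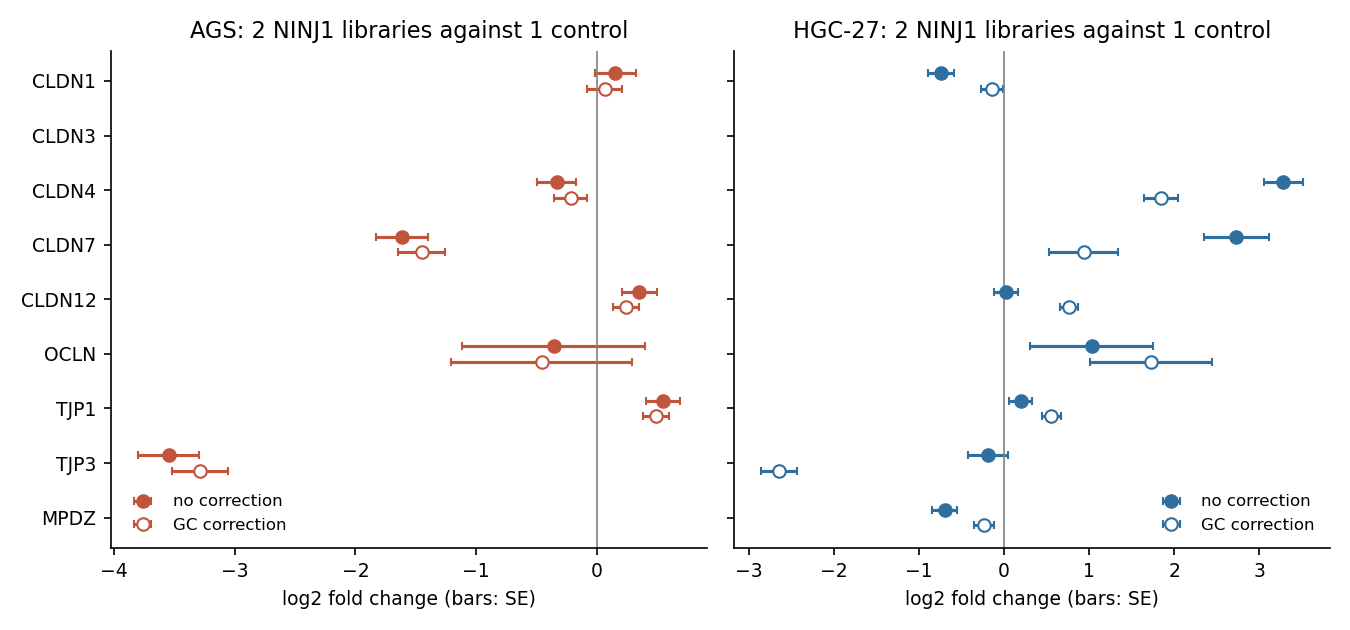
Log2 change of each member in the libraries labelled NINJ1 against control (horizontal axis, bars SE) in AGS (left) and HGC-27 (right), without (filled) and with (open) GC correction; CLDN3 is not drawn, nor MPDZ in AGS, where it had no counts. TJP3 lies below -3 in AGS under both settings and moves from -0.18 to -2.64 in HGC-27 with the correction.

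Among the wider list, GC content touched the HGC-27 changes as well. Of the 37 other tight junction genes tested in HGC-27, 15 were higher and 11 lower, with a median log2 change of 0.15 against 0.12 over all genes. With GC correction 12 were higher and 8 lower. Both counts lie near the background of 34% higher and 29.1% lower without the correction, and 22.2% and 26.8% with it. CLDN15, a claudin of cation pores, had 234 and 265 counts in the libraries labelled NINJ1 and 11 in the control (log2 change 4.39, and 2.49 with GC correction, adjusted p = 2.70e-06). ESAM (2.37, and 1.54 corrected) and TJAP1 (2.91, and 1.82 corrected) passed under both settings, and PRKCI (-1.27, and -0.54 corrected) and CXADR (-1.03, and -0.34 corrected) were lower under both. MAGI3 (-1.04, and -0.55 corrected) was lower under both too, and USP53 (-0.81, and -0.09 corrected) without the correction alone. LSR passed without the correction alone (2.90, and 0.13 corrected). Of the 18 adherens junction and desmosome genes, 4 were higher and 11 lower without the correction, and 1 was higher and 11 lower with it. DSP (-1.46, and -1.36 corrected), PERP (-1.32, and -0.71 corrected) and CTNNB1 (-1.25, and -0.79 corrected), which encode desmoplakin, a desmosome partner and beta-catenin, were lower under both, as was CTNND1 (-0.95, and -0.72 corrected). NECTIN2 was higher under both (2.76, and 0.99 corrected). PKP3 (1.61, and -1.49 corrected), JUP (1.13, and -1.02 corrected) and NECTIN1 (1.13, and -0.82 corrected) passed as higher without the correction and as lower with it.

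The change in the libraries labelled NINJ1 differed between the lines for 4 members. The log2 change in AGS minus that in HGC-27 was -4.34 for CLDN7 (SE 0.43, adjusted p = 3.40e-10), -3.61 for CLDN4 (SE 0.28, adjusted p = 9.77e-13), -3.36 for TJP3 (SE 0.36, adjusted p = 1.23e-09) and 0.90 for CLDN1 (SE 0.23, adjusted p = 0.00126). Over all tested genes 23.9% had a higher and 30.2% a lower change in AGS. With GC correction, CLDN7 (-2.39, adjusted p = 1.35e-04) and CLDN4 (-2.06, adjusted p = 5.09e-07) still differed, with 19.3% of all tested genes higher and 15.9% lower. TJP3 (-0.64, SE 0.33, adjusted p = 0.133) and CLDN1 (0.21) no longer passed, and CLDN12 turned from 0.33 to -0.52 and passed (adjusted p = 0.0107).

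Over both lines together, no member passed, and neither did any other gene: edgeR called 0% of tested genes higher and 0% lower, with 2257 at an unadjusted p under 0.05, while DESeq2 called 315. TJP3 had the largest log2 change of the members (-2.15, SE 0.79, adjusted p = 0.377). With GC correction it passed, at -2.96 (SE 0.24, adjusted p = 0.00869), one of 284 genes called lower (1.61% of all tested, with 0.335% higher) and the single member called. Its GC-corrected level was 1.48 and 2.18 CPM in AGS libraries labelled NINJ1 against 17.9 in the AGS control, beside the HGC-27 values above, so in each line both libraries labelled NINJ1 lay below the control.

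Known regulators of epithelial junction genes did not share one pattern. In AGS libraries labelled NINJ1, of 8 junction repressors, ZEB2 (1.03, adjusted p = 0.00419) and TCF4 (1.00) were higher and SNAI2 (-1.09, adjusted p = 0.0158) and FOXC2 (-0.56) lower, beside 5.73% and 9.3% of all tested genes. FOXC2 did not pass with GC correction (-0.30, adjusted p = 0.167). In HGC-27, 2 of the 8 were higher and 3 lower, and 3 were higher and 3 lower with GC correction, near the background of 34% and 29.1%, or 22.2% and 26.8% corrected. SNAI1 was higher (4.08, and 2.54 corrected), with 70 and 116 counts in the libraries labelled NINJ1 and 5 in the control. TWIST1 was higher (adjusted p = 2.28e-04), with 19 and 30 counts against 2, a ratio per library total of 15.1 (95% exact interval of counting error 3.96 to 128.0). SNAI2 was lower (-2.25, and -1.66 corrected), and ZEB1 (-0.90, and -0.16 corrected) and ZEB2 (-0.50, and 0.22 corrected) were lower without the correction alone. Of 10 tested regulators of epithelial transcription and splicing, 3 were lower and 1 higher in AGS libraries labelled NINJ1: HNF4A (-2.67, adjusted p = 1.74e-08), ELF3 (-1.09, adjusted p = 7.75e-07) and EHF (-2.19, adjusted p = 0.0127) were lower and GRHL1 (0.73) was higher. The change of EHF rests on few counts, 2 and 5 against 17 in the AGS control. HNF4A, a nuclear receptor of gut epithelium, had 19 and 31 counts in AGS libraries labelled NINJ1 against 166 in the AGS control. It was lower in HGC-27 as well (-2.00, adjusted p = 2.28e-09, and -2.66 with GC correction), with 109 and 103 counts in the libraries labelled NINJ1 against 396 in the control. EHF was lower there too (-3.56, and -3.02 with GC correction), as was KLF5 (-0.49, and -0.30 with GC correction), and KLF4 was higher (2.27, and 1.27). ELF3 (0.88, and -0.31 with GC correction) and ESRP2 (1.44, and -0.36) turned with the setting. Of the 10, 3 were higher and 3 lower in HGC-27, and 2 and 5 with GC correction. Between the lines, the NINJ1-labelled AGS libraries had more FOXC2 (1.38), ZEB1 (0.84), TWIST1 (1.73) and SNAI1 (0.94) and less SNAI2 (-0.94) than those of HGC-27, 5 of the 8 repressors being higher and 1 lower. Of the 10 epithelial regulators, 3 were higher in these AGS libraries, TP63 (3.95, with only 5 and 1 counts in those of HGC-27), GRHL1 (0.65) and KLF4 (0.46). The 6 lower ones included KLF5 (-1.15), ELF3 (-0.89), HNF4A (-1.90) and EHF (-3.27). Of all tested genes, 20.2% were higher and 20% lower in this comparison. GRHL2 and ESRP1, which maintain epithelial junction programmes, had 0 or 1 and 0 to 7 counts per library.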

How the data were processed

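Polyadenylated RNA of 6 libraries was counted by the authors. The submitters' processing notes name HISAT2, HTSeq 0.13.5 and GRCh38; the annotation release and strand setting are not given in the sources used here. The deposited tables hold raw read counts and FPKM per the file headers. The authors' FPKM equals the count divided by 1 length per gene and by the library total (relative spread at most 8.32e-09 over 6974 genes). The labels do not say whether replicates came from separate cultures. The p-values thus reflect spread between libraries that may be technical, and each control is assumed to vary like the libraries labelled NINJ1. Intervals and the limit of 3 counts behind a count of 0 cover counting error only.

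From the counts, edgeR 4.0.16 (R 4.3.3) was run with TMM scaling, filterByExpr at a minimum count of 10 (17617 genes) and two-sided quasi-likelihood tests with Benjamini-Hochberg adjusted p under 0.05. The SE is the log2 change divided by the square root of F. The line comparison had treatment as a term, and the other comparisons used 1 mean per line and label or, over both lines, line as a term. Alternatives were DESeq2 1.42.0, its size factors, no filter, limma 3.58.1 on log2(FPKM + 1) and log2(FPKM + 0.1), titled lines, left-out libraries, a replicate block and a GC correction (a lowess curve of each library's log2 deviation on transcript GC, span 0.2). The test was also run on simulated data with 4-fold changes. These data had no difference in base composition between libraries, so they do not cover the GC imbalance of the HGC-27 control. The 9 members and all gene lists were chosen with earlier results of these data known. All members are named in every comparison. Of each list, up to 4 called genes per direction with the smallest p are named; KRT8, KRT19, CDH1, VIM, PTPRC, KDR, COL1A2, COL3A1, GRHL2 and ESRP1 are named as levels, and JUP, PKP2 and DSP in AGS as changes, chosen after their values were seen.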

Additional observations from a re-analysis of the deposited data

Results flagged for a closer look

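The change in the libraries labelled NINJ1 differed between AGS and HGC-27 by the test of the difference itself for 4 members and for NINJ1. Of all tested genes, 23.9% had a higher and 30.2% a lower change in AGS, so the share of members called is near the background. On the log2 scale the change in AGS minus that in HGC-27 was 0.90 for CLDN1, -3.61 for CLDN4, -4.34 for CLDN7, -3.36 for TJP3 and -2.57 for NINJ1. Without GC correction, CLDN7 was lower in the AGS libraries labelled NINJ1 than in the AGS control and higher in those of HGC-27 than in the HGC-27 control. In the same setting TJP3 was lower in AGS and near its control in HGC-27 (-0.18), and CLDN4 was near its control in AGS (-0.33) and higher in HGC-27. Base composition moved with these differences: with GC correction they were 0.21 for CLDN1, -2.06 for CLDN4, -2.39 for CLDN7, -0.64 for TJP3 and -1.08 for NINJ1, and CLDN1 and TJP3 no longer passed. Within HGC-27, the correction left CLDN4 higher and CLDN7 no longer passing. TJP3 was then lower there, with 7.595 and 8.395 GC-corrected CPM in the libraries labelled NINJ1 against 50.09 in the control. The part of the HGC-27 control and that of the line cannot be told apart. Groups here hold at most 3 libraries, too few to look for single outlying values.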

How the results depend on the processing

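DESeq2's size factors and no filter on low counts changed no member's call or direction (46 values each). The number of members called for AGS against HGC-27, 1 as reported, was 2 with DESeq2, 3 with GC correction, 2 on the 4 undisputed libraries and 1 to 4 with 1 library left out. With the titled lines it was 0 for AGS against HGC-27, over all libraries and in those labelled NINJ1, for NINJ1 in AGS and for the difference between lines, and 1 for NINJ1 in HGC-27; with GC correction added, all were 0. For NINJ1 in AGS, 3 as reported, it ranged from 2 to 5 with 1 library left out. Over both lines, 0 as reported, it was 1 with GC correction and 0 to 4 with 1 library left out. Directions turned for TJP3 between lines in NINJ1-labelled libraries with titled lines (0.22, and 0.019 with GC correction), for CLDN12 in the difference with GC correction (-0.52), and for TJP3 in the difference with titled lines and GC correction (1.51). Over both lines, leaving out 1 library gave -1.60 to 2.78 for CLDN7 and -0.68 to 1.94 for NINJ1. With the control of a line left out, the treatment term rests on the other line alone. These ranges thus end near the single-line changes in AGS and HGC-27 (CLDN7 -1.61 and 2.73, NINJ1 -0.68 and 1.89). The cause of the turned directions was not tested.

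Counts over all genes moved as well. For AGS against HGC-27, 1082 genes became 2459 with DESeq2, 3904 with GC correction, 575 on the 4 undisputed libraries, 117 with the replicate block, 0 with titled lines and 114 to 7117 with 1 library left out. For NINJ1 in AGS, 2648 became 1317 with DESeq2, 950 and 793 in limma, 0 with titled lines and 935 to 4712 with 1 library left out. For NINJ1 in HGC-27, 11103 (5985 higher, 5118 lower) became 2149 with titled lines, and limma on log2(FPKM + 1) split it into 5961 and 2470. For the difference, 9547 (4219 higher, 5328 lower) became 6192 with GC correction (3393 and 2799) and 0 with titled lines; between lines in NINJ1-labelled libraries, 7084 became 0. Over both lines, 0 became 315 with DESeq2, 343 with GC correction, 1 on the 4 undisputed libraries, 2719 without the HGC-27 control and 11043 without the AGS control. Without a control the test rests on the other line alone, so these last counts lie near the 2648 of AGS and the 11103 of HGC-27. Replicate numbers did not pair the samples (r = 0.00546 over 17617 genes, between replicate 1 deviations of the 2 lines), and with the replicate block the members called stayed at 1 for AGS against HGC-27 and 4 in the NINJ1-labelled libraries. The GC correction with titled lines was chosen after seeing the data. Depth limits CLDN3 and OCLN, at no more than 27 counts, and CLDN7 in the HGC-27 control, at 13.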

Other observations

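Of 16 actin, myosin and membrane protease genes that act on junctions, 5 were higher and 5 lower in the AGS than in the HGC-27 libraries labelled NINJ1. Of all tested genes, 20.2% were higher and 20% lower. Against the control, 2 were higher and 3 lower in AGS, where 5.73% and 9.3% of all tested genes were. In HGC-27, 4 were higher and 5 lower, against 34% and 29.1% of all tested genes, and 2 were higher and 9 lower with GC correction, against 22.2% and 26.8%. MYH14, a nonmuscle myosin heavy chain of epithelia, had 33 and 30 counts in AGS libraries labelled NINJ1 and 618 and 807 in those of HGC-27 (log2 difference -4.31, adjusted p = 2.75e-18). TIAM1, an exchange factor for RAC1, had 0 counts in every AGS library and 52 and 47 in the HGC-27 libraries labelled NINJ1. ST14 (matriptase), a membrane protease that acts on epithelial junctions, was higher in AGS (1.44, adjusted p = 1.40e-06), as was its inhibitor SPINT1 (adjusted p = 4.77e-04), with 18 and 13 counts in AGS and 1 and 1 in HGC-27, a ratio per library total of 17.7 (95% exact interval of counting error 4.50 to 152.4). ROCK2 (0.72) and MYLK (0.82), kinases that act on myosin, were higher in AGS too. PRSS8 (prostasin) was lower in AGS (-1.75, adjusted p = 0.0249), as was SPINT2 (-1.16). Against the AGS control, MYH14 was higher (adjusted p = 1.08e-04), with a ratio of 11.3 (3.70 to 56.3) that rests on 3 counts in the control, and PRSS8 was lower (-2.68, adjusted p = 0.00562, 6 and 4 counts against 34). ARHGEF11 (0.52) was higher there as well, and MYLK (-0.66) and ROCK2 (-0.41) lower. Against the HGC-27 control, ROCK2 (-1.70, and -1.01 with GC correction), RHOA (-1.22, and -1.10), ROCK1 (-1.28, and -0.63) and RAC1 (-1.11, and -0.74) were lower under both settings. ARHGEF11 was higher under both (1.32, and 0.61), ARHGEF2 (1.26, and -0.02) and ARHGEF18 (1.88, and 0.02) without the correction alone, and MYH14 turned (0.69, and -1.87).

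The genes whose pattern over the 6 libraries was most like that of a member, by Pearson correlation of log2(CPM + 1) among tested genes with a mean FPKM of at least 5, are given as a description; the libraries share line, label and base composition. They were ZCCHC7 and PRRC1 for CLDN1 (both r = 0.998), GIPC1 and CST3 for CLDN4 (both r = 1.00), TCEA2 and PFKL for CLDN7 (both r = 0.997), and BMP2 (r = 1.00) and LCP1 (r = 0.999) for MPDZ. CLDN12 was most like FAM91A1 (r = 0.971) and PRDM10 (r = 0.970), TJP1 most like DDI2 (r = 0.990) and MEAF6 (r = 0.987), and TJP3 most like INTS3 (r = 0.984) and the complement gene C3 (r = 0.950).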
